A study of Mus musculus with 5 samples.

Results

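The exons described here are the alternatively used exons of 6 genes of the extracellular matrix, Fn1, Postn, Fbln2, Mfap5, Pcolce and Ogn, in the left ventricle of diabetic and control mice. Every skipped-exon event of these genes was taken, named by the deposited splicing tables or by matching exons and introns to annotated transcripts, which gave 14 events (4 of Fn1, 3 of Postn, 3 of Fbln2, 2 of Mfap5, 1 of Pcolce and 1 of Ogn) of the 6331 events present in all 6 tables. Coordinates are those of build mm9, as the tables give them. An event is a cassette exon with its neighbours on either side, which a transcript can hold or skip.

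All animals were C57BL/6 mice, sampled as left ventricle at 12 weeks of age. From 8 weeks of age they had intraperitoneal injections on 5 consecutive days. The Control group (2 libraries) received citrate buffer and the STZ group (3 libraries) streptozotocin in the same buffer at 70 mg/kg per day, a compound toxic to pancreatic beta cells that leaves mice short of insulin. Codes that resemble no sample title stand for the libraries in the tables, and the side with 2 libraries was read as Control and the side with 3 as STZ because the group sizes allow no other reading. The numbering of the codes also differs between the sides, so the treatment and any difference in handling or sequencing between them cannot be told apart for any value below. Nothing in the labels says that each library is a separate animal, so p-values measure the spread between these libraries only.

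Depth on the 6331 events ran from 12692236 to 20963751 reads per library, lowest in the STZ group. Of these, 2537025 to 4173228 were informative, that is, they fitted the including isoform alone or the skipping isoform alone. Reads assigned to neither isoform made up 45.5 to 49.1% of a library. Transcripts of the cardiomyocyte genes Ttn (19925 in STZ and 20041 in Control, as the mean of reads per 1000000 assigned reads, RPM) and Tnnt2 (8406 and 5799) were abundant, as the tissue label implies. Pln, which encodes the calcium pump regulator phospholamban, took 10.2% of the assigned reads of each Control library and 2.90 to 3.88% of each STZ library, so any level in RPM is relative to totals of differing make-up.

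The extracellular matrix of the heart is a mesh of collagens, glycoproteins and proteoglycans, laid down largely by fibroblasts. Fibronectin, encoded by Fn1, is a glycoprotein built of repeated modules that joins cells to collagen through integrins. Its messenger RNA can carry additional type III modules, extra domain A (EDA) and extra domain B (EDB), each encoded by an exon of its own, and both are known from embryonic, wounded and fibrotic tissue. Periostin (Postn) is a matricellular protein of activated fibroblasts, fibulin-2 (Fbln2) links elastic fibres and basement membranes, Mfap5 belongs to the microfibrils, Pcolce enhances the trimming of procollagen, and Ogn (osteoglycin, or mimecan) is a small leucine-rich proteoglycan that binds collagen.

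The exons on which the splicing results turn are the EDA and EDB exons of Fn1 and an exon of Fbln2 that encodes an EGF-like module. They are shown as the coding strand of GENCODE M21 transcripts (build GRCm38) that match the event in the length of the exon and of the introns beside it. In the EDA exon capitals mark the 21 bases, from base 117 to base 137, that encode the loop in which binding to integrins alpha4beta1 and alpha9beta1 has been placed. In the Fbln2 exon capitals mark its 6 in-frame cysteine codons, the residues that hold an EGF-like module together. The EDB exon is in lower case throughout.
Fn1 EDA exon, 270 nt: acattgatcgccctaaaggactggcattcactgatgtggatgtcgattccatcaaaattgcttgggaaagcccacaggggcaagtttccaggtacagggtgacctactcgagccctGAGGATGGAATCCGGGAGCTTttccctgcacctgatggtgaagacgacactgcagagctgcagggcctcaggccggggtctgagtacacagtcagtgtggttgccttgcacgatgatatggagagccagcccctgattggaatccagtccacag
Fn1 EDB exon, 273 nt: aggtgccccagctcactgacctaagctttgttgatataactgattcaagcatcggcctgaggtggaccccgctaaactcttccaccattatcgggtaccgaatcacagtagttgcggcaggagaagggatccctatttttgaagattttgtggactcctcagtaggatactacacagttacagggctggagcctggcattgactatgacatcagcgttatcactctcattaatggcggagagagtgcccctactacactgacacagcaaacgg
Fbln2 exon 9, 141 nt: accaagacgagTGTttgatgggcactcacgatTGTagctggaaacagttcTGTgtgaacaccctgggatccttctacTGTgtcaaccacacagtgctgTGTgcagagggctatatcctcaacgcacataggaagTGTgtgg

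Whether diabetes goes with other splice forms of these transcripts was asked from Psi, the authors' estimate of how often the exon is kept in the gene's transcripts, from 0 for never to 1 for always. Of the 14 events, 10 had at least 10 informative reads in every library and were tested, and 4 did not (2 of Postn and both of Mfap5). The EDA exon of Fn1 was the only tested exon of the 6 genes that passed an adjusted p of 0.05 (limma), with less inclusion in STZ. That is 1 of 10 exons, beside 15% of all 4769 tested exons called in either direction, 4.89% higher and 10.1% lower. Psi of the groups did not overlap for 2 of the 10 exons, beside 42.9% of all tested exons. The median change of Psi was -0.025 over the 10 exons and -0.01 over all tested exons.

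**Figure D1:**
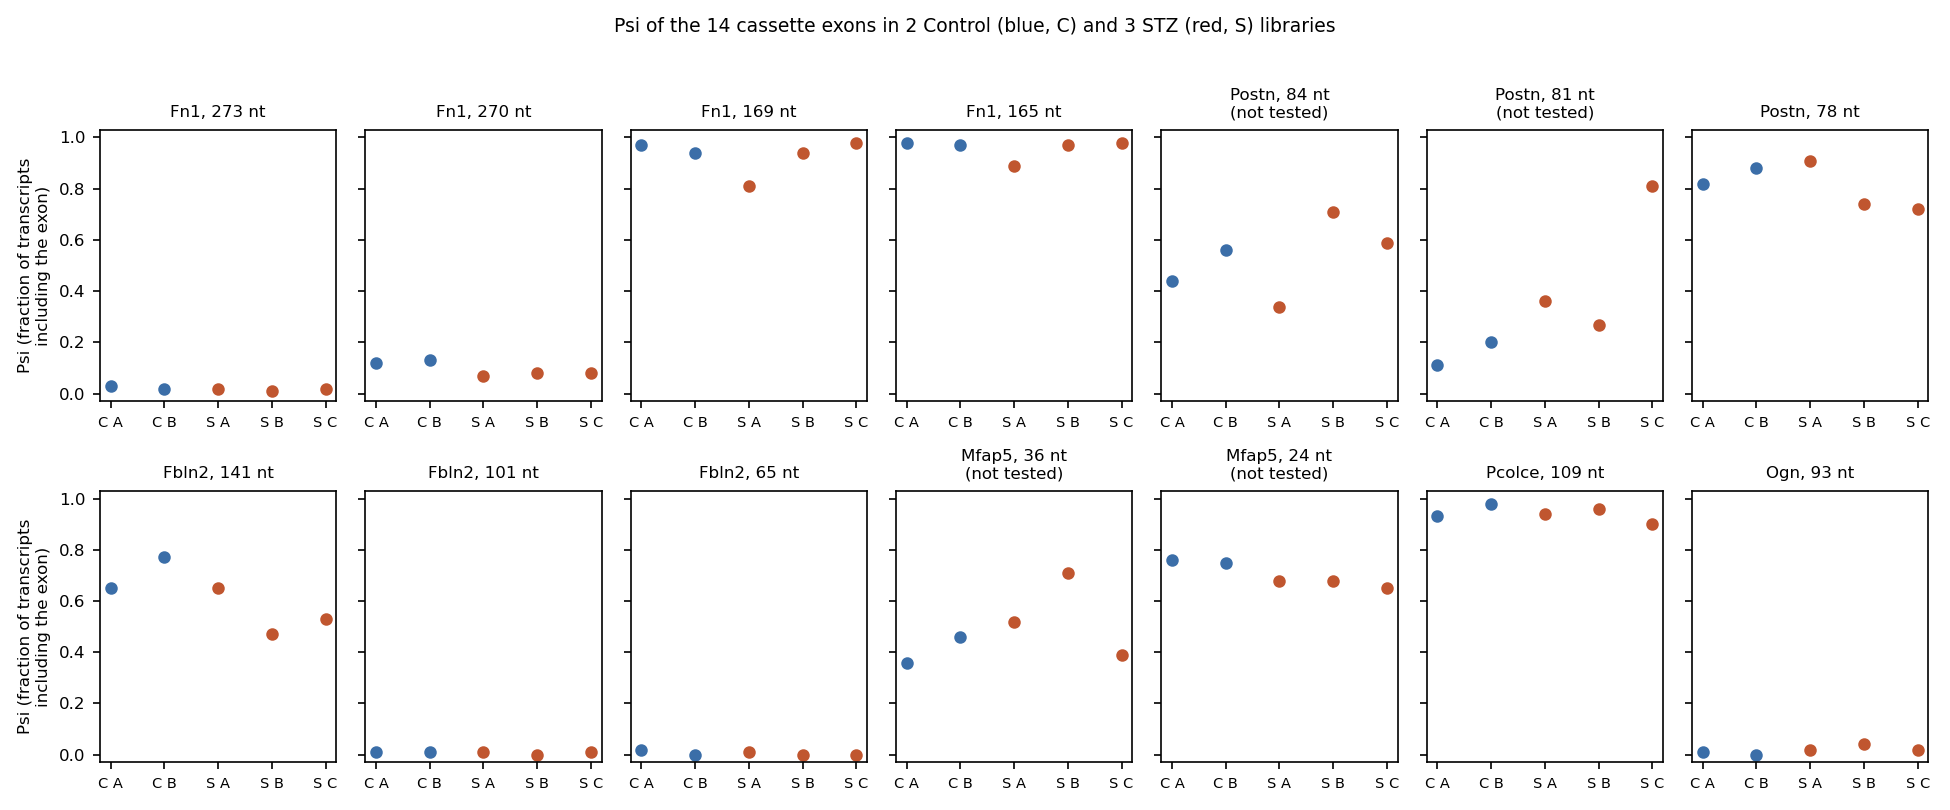
Psi (vertical axis, fraction of transcripts that include the exon) of the 14 exons in each Control (blue) and STZ (red) library. The EDA exon of Fn1 (270 nt) lies at 0.12 and 0.13 in Control and at 0.07 to 0.08 in STZ, and exon 9 of Fbln2 (141 nt) at 0.65 and 0.77 against 0.47 to 0.65.

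The EDA exon of Fn1 is exon 33 of 46 in the matched transcript (ENSMUSG00000026193.15; chromosome 1, 71650234 to 71650503, minus strand, mm9), is coding and keeps the reading frame. Its Psi was 0.12 in Control A and 0.13 in Control B, against 0.07 in STZ A, 0.08 in STZ B and 0.08 in STZ C. Every STZ value lay below both Control values. Mean Psi fell from 0.125 ± 0.00707 (SD, n = 2) to 0.0767 ± 0.00577 (SD, n = 3), a change of -0.54 ± 0.08 (SE) on the logit scale (limma, adjusted p = 0.0317). Within each group Psi differed by no more than the smallest step that the deposited values can show. The SDs therefore stand at the limit of rounding and do not show the counting error of the reads, and the SE rests on the same values. In the authors' deposited table the differences for this exon ran from 0.04 to 0.06. A fall of 0.20 could not occur, since Psi in Control was at most 0.13. The Bayes factor was 17.89 for Control B against STZ A and at most 7.63 in the other comparisons. None of the 14 exons had a difference of 0.20 or more with a Bayes factor of 10 or more in all 6 comparisons, where 3.22% of all events did. Such a fall was also out of reach for the EDB exon, the early exons of Fbln2 and the Ogn exon, with Control Psi of 0.03 or less.

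The reads behind this exon did not pass a test of their own. Inclusion-only reads numbered 82 of 153 informative reads in Control A and 141 of 274 in Control B, and 31 of 88, 28 of 60 and 47 of 102 in STZ A, B and C. As a read share this is 0.536 and 0.515 in Control and 0.352, 0.467 and 0.461 in STZ, again without overlap between the groups. The share is not corrected for length and is not on the scale of Psi: inclusion-only reads can fall anywhere in the exon and at its borders, exclusion-only reads only across the skipping junction. A quasi-binomial model of the reads did not pass after adjustment (p = 0.046, adjusted p = 0.152), where 21.1% of all tested exons did, 7.4% higher and 13.7% lower. The limma call was also lost when any 1 of the 5 libraries was left out, with adjusted p = 0.0573 without STZ A, 0.0832 without STZ B, 0.0848 without STZ C, 0.103 without Control A and 0.136 without Control B, while the change of Psi stayed between -0.0533 and -0.0433.

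In RPM, both kinds of EDA read were fewer in STZ on average. Inclusion-only reads were at 8.88 and 12.3 RPM in Control and at 4.08, 3.65 and 6.97 in STZ, with every STZ library below both Control libraries. The ratio of the group means, Control over STZ, was 2.16. Exclusion-only reads were at 7.69 and 11.6 RPM in Control and at 7.51, 4.17 and 8.16 in STZ, where STZ C lay above Control A, and the ratio was 1.46. These rates share a library total and were not tested.

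**Figure D2:**
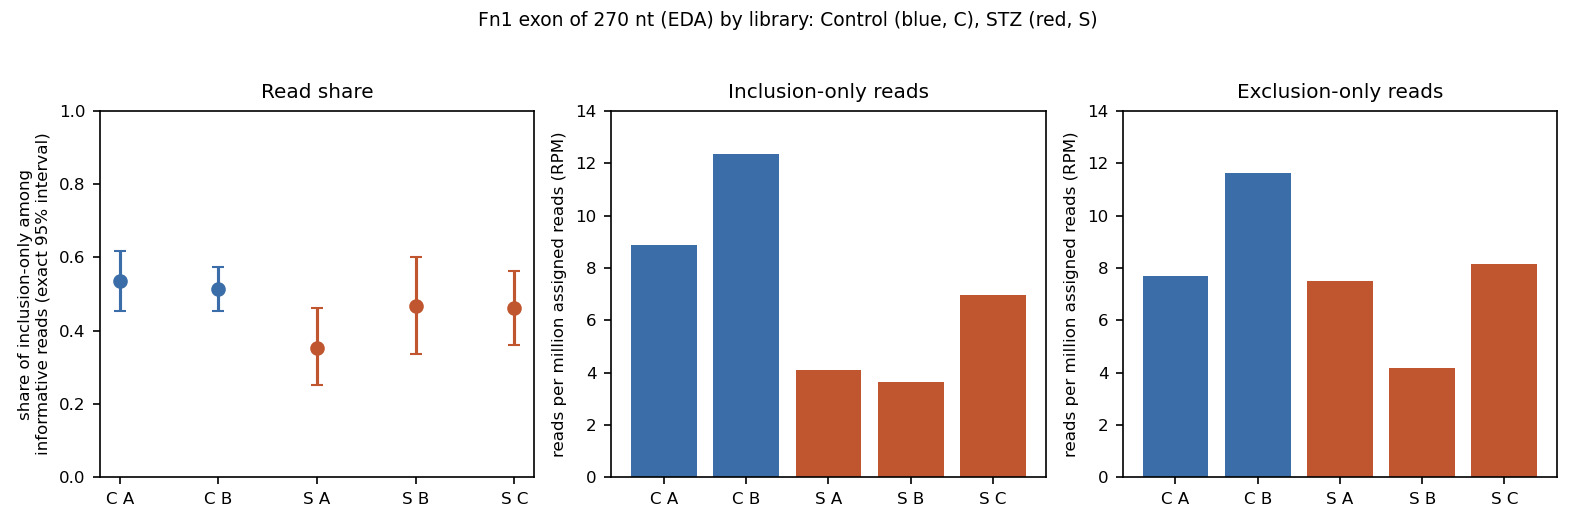
The EDA exon of Fn1 in each library: left, the share of inclusion-only among informative reads with its exact (Clopper-Pearson) 95% interval, which covers counting error only; middle and right, inclusion-only and exclusion-only RPM. Shares lie at 0.515 and 0.536 in Control (blue) and at 0.352 to 0.467 in STZ (red), and the intervals of all 3 STZ libraries overlap those of Control.

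The EDB exon of Fn1 (exon 25; chromosome 1, 71660337 to 71660609, minus strand) was nearly always skipped. Psi was 0.03 and 0.02 in Control and 0.02, 0.01 and 0.02 in STZ, and the groups overlapped. Inclusion-only reads were 27 beside 311 exclusion-only reads in Control and 16 beside 211 in STZ. The test did not pass (limma, adjusted p = 0.423; read model, adjusted p = 0.981). In every library Psi of EDA was above that of EDB.

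Another cassette exon of Fn1, exon 42 in the transcript, was nearly always included. The tables hold it in 2 forms that differ by 4 bases at the exon's downstream end, one of 165 nt (chromosome 1, 71639645 to 71639809) and one of 169 nt (71639641 to 71639809). The 165-nt form keeps the reading frame and matches annotated coding transcripts. The 169-nt form matched none by length and took its gene from neighbouring exons shared with the shorter form. More reads fitted the inclusion of the 165-nt form (1868 over the 5 libraries) than that of the 169-nt form (1172), and a read can count for both forms. Psi of the 165-nt form was 0.98 and 0.97 in Control and 0.89, 0.97 and 0.98 in STZ, so STZ A alone lay below the others. Psi of the 169-nt form was 0.97 and 0.94 in Control and 0.81, 0.94 and 0.98 in STZ, again lowest in STZ A. Neither form passed (limma, adjusted p = 0.661 and 0.837). Exclusion-only reads were 2 in all for each form, 1 in Control B and 1 in STZ A. Reads that fitted both isoforms numbered 15 in STZ A and 4 to 12 in the other libraries.

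Exon 9 of Fbln2 (ENSMUSG00000064080.12; chromosome 6, 91209624 to 91209764, plus strand), the EGF-like exon shown above, had the largest change of Psi of the 10 tested exons but did not pass. Psi was 0.65 in Control A and 0.77 in Control B, and 0.65 in STZ A, 0.47 in STZ B and 0.53 in STZ C. STZ A equalled Control A, and STZ B and STZ C lay below both Control libraries. The means were 0.71 ± 0.0849 (SD, n = 2) and 0.55 ± 0.0917 (SD, n = 3), with an adjusted p = 0.253 in limma. Skipping was read 29 times in Control, beside 770 reads of inclusion, and 81 times in STZ, beside 1098. The read share was 0.95 and 0.974 in Control and 0.943, 0.909 and 0.935 in STZ, below both Control values in each STZ library. It did not pass in the quasi-binomial read model with Benjamini-Hochberg adjustment (adjusted p = 0.111). The authors' deposited table gave a difference of 0.20 or more, with a Bayes factor of 10 or more, in 2 of the 6 comparisons, those of Control B with STZ B (0.3) and with STZ C (0.24).

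The other events of Fbln2 are alternative exons in the untranslated start of the gene, of 101 nt and 65 nt, that were almost never included. Their Psi was at most 0.02 in every library. Over the 5 libraries 18 of 1200 informative reads fitted inclusion of the 101-nt exon and 9 of 1183 that of the 65-nt exon. Neither passed (limma, adjusted p = 1 and 0.412). Without Control B the 65-nt exon passed, with a change of -0.0167 (adjusted p = 0.0244).

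Of the 3 exons of Postn, all coding, in frame and in the part of the gene for the protein's variable tail, only the 78-nt exon could be tested. Its Psi was 0.82 and 0.88 in Control and 0.91, 0.74 and 0.72 in STZ, with overlap between the groups (limma, adjusted p = 0.78). Skipping was read only in Control A, by 2 reads. Informative reads numbered 117 and 85 in Control and 79, 16 and 10 in STZ A, B and C. In all libraries but Control A, Psi is therefore an estimate made without a read of skipping. The 81-nt exon (exon 17 of 23; chromosome 3, 54184334 to 54184414, plus strand) had a Psi of 0.11 and 0.2 in Control and 0.36, 0.27 and 0.81 in STZ, higher in every STZ library. Its informative reads were few: 10 inclusion-only and 12 exclusion-only in Control A, 8 and 6 in Control B, 16 and 3 in STZ A, 3 and 1 in STZ B, and 4 and 0 in STZ C. Without a minimum of reads the test did not pass (limma, adjusted p = 0.332). The authors' deposited table gave such a difference and Bayes factor in 3 of its 6 comparisons, where 20.9% of all events had 1 or more. The 84-nt exon ranged from 0.44 to 0.56 in Control and from 0.34 to 0.71 in STZ, on 2 to 16 informative reads a library.

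None of the remaining exons passed. Exon 2 of Pcolce (ENSMUSG00000029718.14, 109 nt, not a multiple of 3; chromosome 5, 138051625 to 138051733, minus strand) was included at 0.93 and 0.98 in Control and at 0.94, 0.96 and 0.9 in STZ (limma, adjusted p = 0.614). A 93-nt exon of Ogn (chromosome 13, 49704210 to 49704302, plus strand) was nearly always skipped, at 0.01 and 0 in Control and 0.02, 0.04 and 0.02 in STZ. The Ogn event matched no annotated transcript by length. Every STZ value of that exon was above both Control values. Inclusion was read 8 times in each Control library, beside 307 and 434 exclusion-only reads. In STZ it was read 2, 4 and 2 times, beside 43, 29 and 27. The exon did not pass (limma, adjusted p = 0.119; read model, adjusted p = 0.104). It passed in limma without STZ B (adjusted p = 0.0387). The exons of Mfap5, of 36 and 24 nt, had no exclusion-only read in any library. For the 24-nt exon these were 0 of 41 informative reads, which allows a share of up to 7.32%, and for the 36-nt exon 0 of 10, which allows up to 30%. Their Psi, from 0.65 to 0.76 for the 24-nt exon and from 0.36 to 0.71 for the 36-nt exon, is an estimate made without a read of skipping.

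The share of reads that fitted neither isoform differed widely among the 14 events. Over all libraries it was 99.4 and 98.9% for the exons of Mfap5, 95.5, 95.2 and 80.6% for those of Postn and 78.5% for exon 9 of Fbln2. It was 65.5% for the 169-nt and 45.9% for the 165-nt exon of Fn1, 50.9% for the EDA exon, 35.3% for EDB, 34% for Pcolce, 21.5% for Ogn and about 8% (7.98 and 8.02) for the early exons of Fbln2.

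The exons whose Psi across the 5 libraries lay nearest to that of EDA, by Euclidean distance among all tested exons of other genes, were those of Rpl41 (22 nt, distance 0.0245), Atrx (185 nt, 0.0283), Serpinb6a (176 nt, 0.0316), Prepl (100 nt, 0.0387) and Cpsf7 (66 nt, 0.04). Of these, Rpl41 (adjusted p = 0.0499) and Cpsf7 (0.04) also passed in limma. None of the 5 is a matrix gene, but only 31 of the 4769 tested exons belong to the matrix list used below, so few could be. For exon 9 of Fbln2 the nearest were exons of C230096C10Rik (9 nt, distance 0.0819), Pex11a (116 nt, 0.102), Nfya (81 nt, 0.104), Elmod3 (31 nt, 0.115) and 4931406H21Rik (255 nt, 0.12), and none of those passed.

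The amount of each transcript was then compared, since the reads on an event also follow how much of the gene's RNA a library holds. The event read level used here is the number of reads fitting either or both isoforms of the gene's best-read event, in RPM as defined above. It is a rough measure, taken from a stretch of the gene and not from the whole. In bulk tissue fewer cells of a type and less RNA per cell cannot be told apart. Of the 6 genes, 5 had the 50 reads required for a test. Ogn and Pcolce fell, Fbln2 rose, and Fn1 and Postn did not pass, so 3 of 5 were called where 49% of all 3913 tested genes were, 18.9% higher and 30.1% lower. The groups did not overlap for 4 of the 5, beside 68.6% of all genes. The median log2 change of all genes was -0.17 on this scale and -0.0027 under a scaling by the median of ratios, and the share of called genes that were higher in STZ went from 38.6 to 49.3%.

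**Figure D3:**
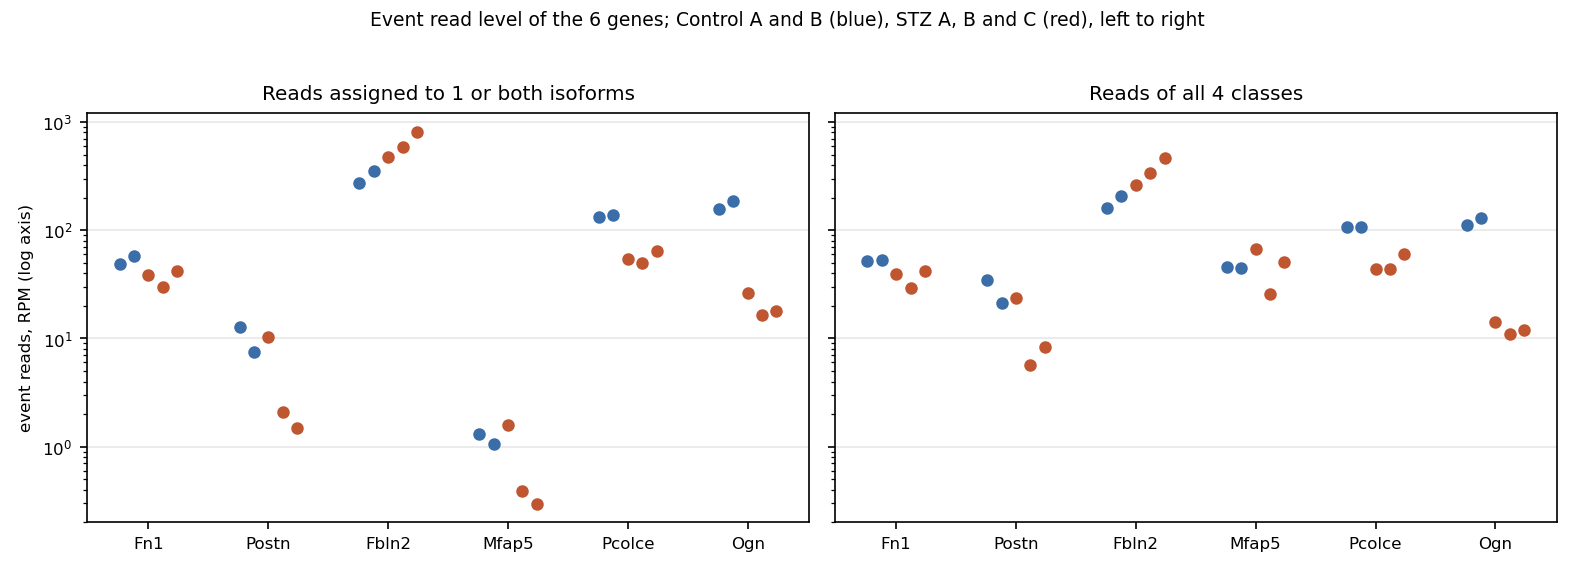
Event reads (in RPM, log axis) of the 6 genes in each Control (blue) and STZ (red) library, left for reads assigned to either or both isoforms and right for reads of all 4 classes; values are to be compared within a gene only. Ogn lies at 158 and 188 in Control and at 16.4 to 26.1 in STZ on the left, and Fbln2 at 271 and 351 against 471 to 815.

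Ogn showed the largest difference of the 6 genes. Its level was 158 and 188 RPM in Control and 26.1, 16.4 and 18.1 in STZ, with all STZ libraries far below both Control libraries. The means were 173 ± 21.1 (SD, n = 2) and 20.2 ± 5.17 (SD, n = 3), that is 8.57 times higher in Control. On the log2(value + 0.5) scale the change was -3.09 ± 0.22 (SE; limma, adjusted p = 4.21e-05), and it lay between -3.29 and -2.92 under every alternative tried. In raw reads these were 1461 and 2150 in Control and 198, 126 and 122 in STZ. Ogn lies within Cenpp, a kinetochore gene on the opposite strand, and whether the counting used strand is not given in the sources used here, so reads of these genes could not be separated.

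Pcolce fell as well. Its level was 133 and 137 RPM in Control and 54.4, 50 and 65 in STZ. No STZ library came near a Control library, and the Control mean was 2.39 times the STZ mean (135 ± 3.07, SD, n = 2, and 56.5 ± 7.68, SD, n = 3). The log2 change was -1.26 ± 0.17 (SE; limma, adjusted p = 0.000498) and it stayed called under each alternative. Pcolce overlaps Fbxo24 on the same strand and a non-coding gene on the other.

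Fbln2 rose. Its level was 271 and 351 RPM in Control and 471, 593 and 815 in STZ, all above both Control libraries. The STZ mean, 626 ± 175 (SD, n = 3), was 2.02 times the Control mean of 311 ± 56.5 (SD, n = 2), a log2 change of 0.99 ± 0.23 (SE; limma, adjusted p = 0.00699). The call was lost without Control A (0.80, adjusted p = 0.0808). Exon 9 of the gene gave the same direction with a smaller size: reads on that event were at 40.6 and 43.8 RPM in Control and at 61.8, 51.5 and 83.2 in STZ, a log2 change of 0.60 (adjusted p = 0.0458). Its inclusion-only reads alone overlapped between the groups, at 34.7 and 39.4 RPM in Control and 52.6, 36.5 and 62.2 in STZ, whereas its exclusion-only reads did not, at 1.84 and 1.05 against 3.16, 3.65 and 4.3.

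Fn1 was lower in STZ without passing the threshold. Its level, from the 165-nt event, was 49 and 57.4 RPM in Control and 38.5, 30.1 and 42.4 in STZ. All STZ libraries lay below both Control libraries, with means of 53.2 ± 5.96 (SD, n = 2) and 37 ± 6.3 (SD, n = 3) and a log2 change of -0.53 ± 0.20 (SE; limma, adjusted p = 0.0548). It passed without STZ A (-0.56, adjusted p = 0.0219) and without STZ C (-0.63, adjusted p = 0.0389), and it shrank to -0.36 (adjusted p = 0.136) under the median-of-ratios scaling. The EDA and EDB events had a higher mean in Control too, by 1.53 and 1.4 times, and their values overlapped between the groups. An antisense gene, Apol7d, overlaps the span of Fn1 on the opposite strand. As for Ogn, whether the counting used strand is not given.

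Postn varied most within the STZ group relative to its mean (4.66 ± 4.99 RPM, SD, n = 3). Its level was 12.7 and 7.44 RPM in Control, 10.4 in STZ A, 2.08 in STZ B and 1.48 in STZ C. STZ A lay between the Control libraries and the others below them, and the change did not pass (-1.42 ± 0.65, SE; limma, adjusted p = 0.102). Without STZ A it was -2.18 (adjusted p = 0.000117). With reads of all 4 classes, scaled to their own total, Postn was at 34.9 and 21.1 RPM in Control and at 23.4, 5.71 and 8.27 in STZ (adjusted p = 0.0662).

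Mfap5 had too few assigned reads for a test, from 2 to 12 a library. By reads of all 4 classes, scaled to their own total, it was at 45.6 and 44.4 RPM in Control and at 67, 25.9 and 51.1 in STZ. The STZ values lay on either side of the Control values, with a log2 change of -0.013 ± 0.36 (SE; limma, adjusted p = 0.978).

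**Figure D4:**
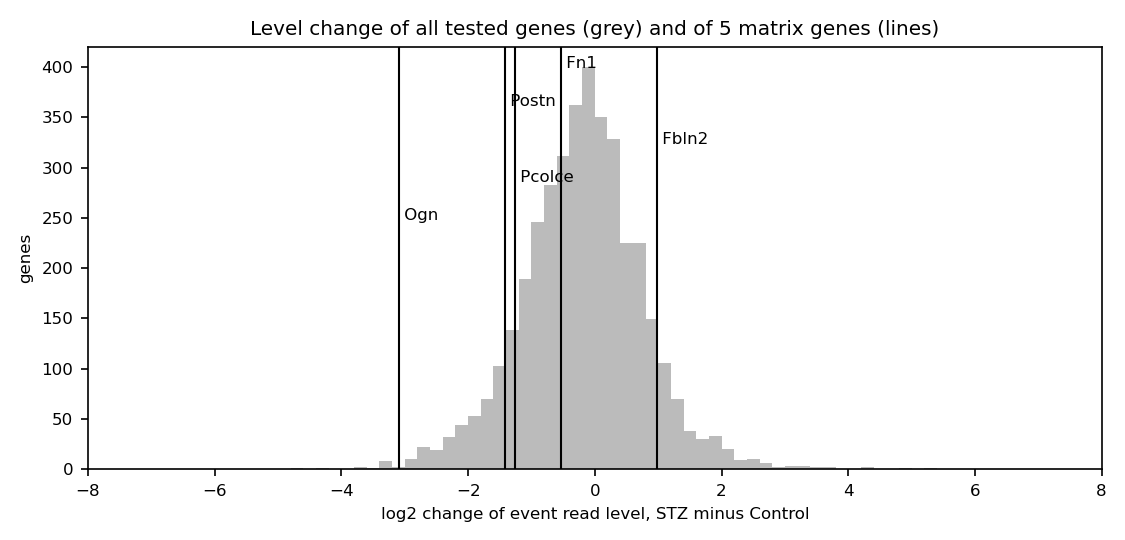
Histogram of the log2 change of event read level (STZ minus Control, horizontal axis) over the 3913 tested genes (vertical axis, number of genes), with lines at 5 of the matrix genes. Ogn, at -3.09, lies in the far lower tail and Fn1, at -0.53, near the middle.

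Markers of the cell types that a ventricle holds moved beside these levels. Fibroblast markers were almost unmeasured: of 10 only Postn itself had an event that could be tested. Of 9 endothelial markers 3 were measured, with a summed level of 770 to 906 RPM in Control and 1770 to 2939 in STZ. Most of that sum was Pecam1 (means of 689 RPM in Control and 2188 in STZ), which rose (log2 change 1.64 ± 0.20, SE; limma, adjusted p = 0.00037). Egfl7 (127 and 106) and Emcn (21.7 and 22.1) did not pass. Of 10 cardiomyocyte markers 4 were measured, at 127358 to 128854 in Control and 60053 to 66120 in STZ. Pln made up most of that sum in Control and fell (means of 102261 RPM in Control and 33781 in STZ). Ryr2 fell too, Tnnt2 rose and Ttn did not pass. The endothelial and cardiomyocyte sums thus follow mainly Pecam1 and Pln. Of 9 leukocyte markers 2 were measured, at 66.6 to 90.1 in Control and 33.1 to 75.4 in STZ, and Cd74 of them fell. Of 8 smooth muscle and pericyte markers 2 were measured, at 398 to 399 in Control and 378 to 490 in STZ, in which Myh11 rose and Smtn fell, the latter not called under the median-of-ratios scaling (adjusted p = 0.063). No measured marker was at 0 in a group. The part of cell make-up in the levels of the 6 genes was not tested.

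Other genes of the matrix and of its processing set these values in context. From a list of 145 such genes, the 6 included, 24 had a testable level, of which 2 were higher and 8 lower in STZ (limma), beside 18.9% higher and 30.1% lower of all genes. The median log2 change was -0.41, and -0.17 for all genes. Apart from the 6 genes themselves, 1 was higher and 6 were lower of 19. Under the median-of-ratios scaling 3 of the 24 were higher and 6 lower, with a median of -0.24. Among them Fbln5, a fibulin of elastic fibres, rose by 1.41 ± 0.25 (log2, SE). Among enzymes and chaperones of collagen assembly, Serpinh1 (-2.08 ± 0.19) and Plod1 (-1.77 ± 0.19) fell. The enzymes P4ha2 (-0.64; limma, adjusted p = 0.0583) and Plod2 (-0.18, adjusted p = 0.461) did not pass. Lower too were Adamtsl5, a microfibril-associated protein (-2.46 ± 0.40), Emilin2 (-1.17 ± 0.29), the proteoglycan Bgn (-0.54 ± 0.18) and Ltbp4, which binds latent TGF-beta (-0.52 ± 0.19). Bgn (-0.37, adjusted p = 0.1) and Ltbp4 (-0.35, adjusted p = 0.153) were not called under the median-of-ratios scaling, and no called gene of the list changed direction.

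**Figure D5:**
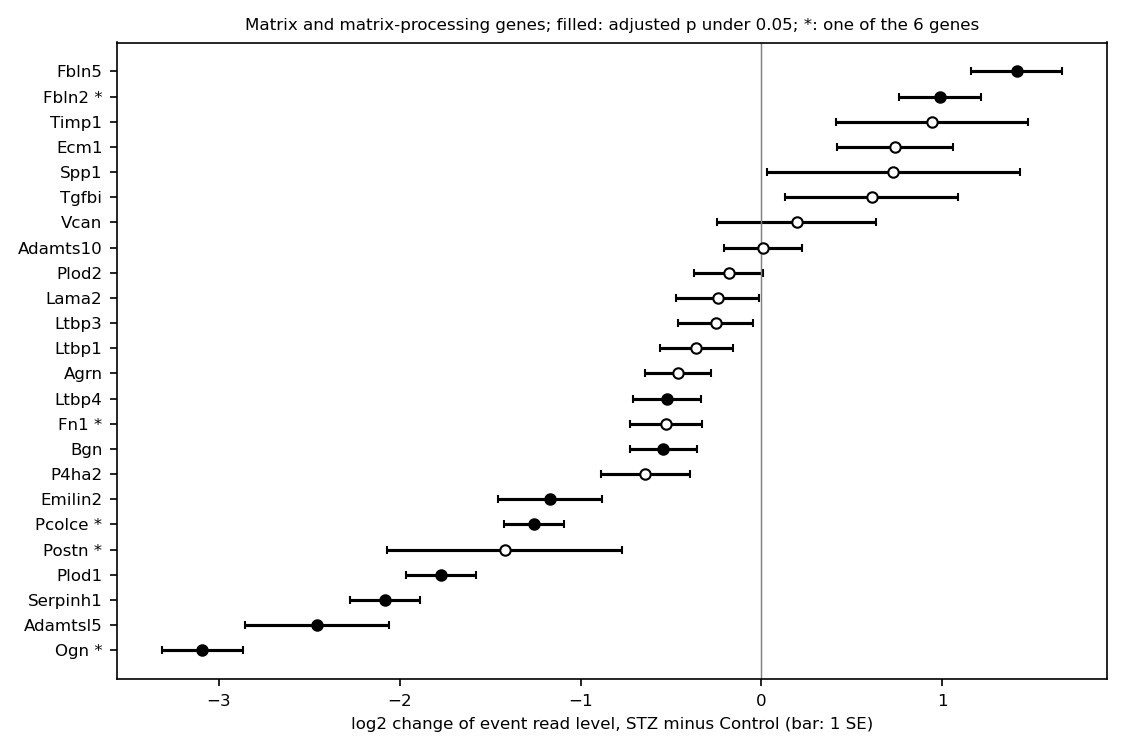
Log2 change of event read level (STZ minus Control, bars 1 SE) for the 24 testable matrix and matrix-processing genes, filled where the adjusted p is under 0.05 in limma, with an asterisk for those among the 6 genes. Changes run from -3.09 for Ogn to 1.41 for Fbln5, and 8 of the 10 filled points lie below 0.

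Of 31 tested exons of that list, 2 rose and 2 fell in Psi (limma), EDA among them, beside 4.89% and 10.1% of all tested exons, and the median change was -0.0067. The collagen chaperone Serpinh1 included a 44-nt exon more often in STZ, at 0.39 ± 0.0346 (SD, n = 3) against 0.025 ± 0.00707 (SD, n = 2) in Control (adjusted p = 0.00617). A 12-nt exon of Lama2, a laminin chain of muscle basement membrane, fell in Psi, being 0.93 ± 0 in Control and 0.66 ± 0.0781 in STZ (adjusted p = 0.0233). In Bgn a 64-nt exon went from 0.02 in both Control libraries to 0.03 in all STZ libraries (adjusted p = 0.00601), the smallest step that the deposited Psi can show, and the read model did not call it (adjusted p = 0.956).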

How the data were processed

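The data are 2 Control and 3 STZ libraries of left ventricle RNA. The submitters' processing notes name CASAVA 1.8.2, TopHat and the build mm9. Each of the 6 tables is a MISO comparison of 1 library with another, per the file headers. Which MISO version and event filter were used is not given in the sources used here. Psi comes as a fraction with 2 decimals, as deposited, and the Bayes factor as a ratio of evidence, per the file headers. Reads in 4 classes are deposited by the authors as text of raw counts (unit other), as is the difference in Psi. Not used were 36 columns of per-library values (credible bounds and reads assigned to each isoform).

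Genes came from the files, else from exon and intron lengths in GENCODE M21, else from shared neighbouring exons. The file and the length match named the same gene in 98.6% of 3314 events. The difference column, checked, equals Psi of Control minus Psi of STZ in every line. Exons with at least 10 informative reads in every library were tested in limma 3.58.1 on logit Psi, clipped to 0.01 and 0.99, with a prior variance that follows the reads. A quasi-binomial model of inclusion-only and exclusion-only reads, with its dispersion moderated by limma and held at 1 or more, was a second test. Levels were log2(RPM + 0.5), RPM being reads per 1000000 assigned reads, in limma, for genes with at least 50 assigned reads. All tests were two-sided, with Benjamini-Hochberg adjustment over all exons or genes. The fits were tested on simulated data. For 4769 simulated exons of STZ against Control, 5% and 18% of logit changes of 1 and 2 were recovered from Psi, and 25% and 69% from reads. Only 100 exons were changed at each size, and all others were unchanged. Of the unchanged exons, 0.416% were called from Psi and 0.0438% from reads. In this simulation the Psi test thus recovered fewer changes and called more unchanged exons than the read model. Intervals and floors cover counting error only, and a floor is 3 counts of the total.

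The 6 genes, the lists and the tests were chosen with earlier results of these data known. Named are all events of the 6 genes, per list up to 8 called exons with the largest change and no overlap, and the 5 exons nearest in Psi to EDA and to exon 9 of Fbln2, the latter chosen after its values were seen. Counts of list genes under the median-of-ratios scaling were added after the data were seen. By level, matrix genes and receptors were named where called, and Srsf3, Srsf5, Srsf1 and Itga5 were picked, all after the values were seen.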

Additional observations from a re-analysis of the deposited data

How the results depend on the processing

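No paired analysis was possible because the library codes carry no replicate number of the labels. Over all exons 716 were called, 282 to 465 when a library was left out and 482 to 1004 under the other settings. Of the 10 tested exons of the 6 genes, 1 was called, 0 in the read model and 0 to 1 when a library was left out, where 1 Control library is assumed to vary like the STZ libraries. Without Control B or STZ B that 1 call was another exon, of Fbln2 (65 nt) and of Ogn. Of the matrix list 4 exons were called, and 2 to 4 when a library was left out. By level 1919 genes were called, 1024 to 2406 without a library, and 3 of the 6 genes, 2 to 5 without a library. The directions for Ogn, Pcolce, Fbln2, Fn1 and Postn held in all 11 alternatives each. That with reads of all 4 classes was added after the data were seen. In the deposited values, 0 of the 14 exons had a difference of 0.20 or more with a Bayes factor of 10 or more in all 6 comparisons (3.22% of all events). With a difference of 0.1 and a Bayes factor of 5 as the limits it was also 0 of the 14. For 2 exons of Postn and both of Mfap5, 95.2 to 99.4% of the reads fitted neither isoform, which left too few informative reads for a test.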

Other observations

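Some receptors of the matrix were called, from a list that also holds the growth factor Tgfb2 (level, limma, adjusted p = 0.102). Of 14 tested exons in 12 genes of a list of 36, 2 rose and 2 fell in Psi (limma), beside 4.89% and 10.1% of all tested exons. Among integrin chains, a 130-nt exon of Itga6 fell from 0.59 ± 0 (SD, n = 2) to 0.137 ± 0.0473 (SD, n = 3; limma, adjusted p = 0.0216) and a 142-nt exon of Itga3 rose in Psi, with 0.63 ± 0.0849 in Control and 0.9 ± 0.0173 in STZ (adjusted p = 0.0266). In Tgfbr2, a TGF-beta receptor, a 75-nt exon rose as well, with 0.45 ± 0.0566 in Control and 0.687 ± 0.00577 in STZ (adjusted p = 0.0213). In Tlr4, an innate receptor that EDA is known to activate, a 167-nt exon fell from 0.99 ± 0 to 0.81 ± 0.07 (adjusted p = 0.0157). By level 3 of 12 genes were higher (Tgfbr2, Itga3 and Tlr4) and Dag1 alone was lower, beside 18.9% and 30.1% of all genes, and under the median-of-ratios scaling 6 were higher and 1 lower. Itga5, the chain of the classical fibronectin receptor, was at 27.1 and 35.3 RPM in Control and STZ (adjusted p = 0.298).

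Among genes for splicing factors, some linked to fibronectin exons, 28 exons in 13 genes were tested. Of these exons 5 rose and 9 fell in Psi (limma), where the shares over all exons were 4.89% and 10.1%. Some genes gave several of the called exons, so these are not independent of each other. The 8 exons with the largest change were in Hnrnph1 (139 and 92 nt), Tra2b (276 and 397 nt), Srsf7, Rbm5 (85 nt, 0.97 ± 0.0283 to 0.55 ± 0.04, adjusted p = 0.0366), Ptbp1 and Hnrnpa2b1 (120 nt, 0.78 ± 0.0141 to 0.45 ± 0.0557, adjusted p = 0.0189). By level 7 of 13 of these genes were higher and 3 lower, beside 18.9% and 30.1% of all genes, and under the median-of-ratios scaling 7 were higher and 0 lower. The largest rise among the 13 was that of Srsf3 (log2 change 1.65 ± 0.14, SE; limma, adjusted p = 8.45e-05), and Srsf5 rose by 1.26 ± 0.13. Srsf1, a factor known to act on EDA, fell (-0.48 ± 0.13, SE; limma, adjusted p = 0.0168), a call lost under the median-of-ratios scaling (-0.31, adjusted p = 0.0932). Whether these changes bear on the EDA exon was not tested.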
